A study of Mus musculus with 20 samples.

Results

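The nuclear-encoded subunits of oxidative phosphorylation were examined in hippocampi of mice without Qtrt1, by ribosome footprints and by input RNA. They were taken from the deposited count table by symbol, as the Ndufa, Ndufb, Ndufc, Ndufs and Ndufv genes of complex I, Sdha to Sdhd of complex II, Cyc1 and the Uqcr genes of complex III, the Cox4 to Cox8 genes of complex IV and the Atp5 genes of complex V. Assembly factors named Ndufaf, Cox8b and symbols containing -ps were left out. The rule gave 84 of 18054 genes, with 36 in complex I, 4 in complex II, 9 in complex III, 18 in complex IV and 17 in complex V. Ndufa4 and its relative Ndufa4l2 were counted with complex IV, where the Ndufa4 protein sits.

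The groups were 3 Qtrt1-/- females, 3 wild-type females, 2 Qtrt1-/- males and 2 wild-type males. Females were 6 months and 21 or 22 days old. In each genotype the male numbered 1 was 6 months and 18 days old and the male numbered 2 was 5 months and 16 days old. Each animal gave 1 footprint library and 1 library of input RNA from the same lysate, 20 libraries from 10 animals. Footprints are mRNA fragments that survive nuclease because a ribosome covers them, so a gene's footprint level follows both its mRNA and the ribosomes on it. The strain, the deletion allele and littermate status are not given in the labels. The tissue was a whole dissected hippocampus, so fewer cells of a type and less RNA per cell cannot be told apart.

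Oxidative phosphorylation passes electrons from NADH through complex I, or from succinate through complex II, to ubiquinone, then through complex III and cytochrome c to complex IV, which reduces oxygen. Complexes I, III and IV pump protons out of the mitochondrial matrix, and complex V, the ATP synthase, uses their return to make ATP, on which neurons depend for ion pumping and synaptic transmission. Complexes I, III, IV and V combine nuclear-encoded subunits, made by cytosolic ribosomes and imported, with a few subunits translated inside mitochondria, whereas complex II is nuclear-encoded throughout. Qtrt1 is the active subunit of tRNA-guanine transglycosylase, the enzyme that puts queuosine at the wobble position of 4 tRNAs, those of tyrosine, histidine, aspartate and asparagine, so the cytosolic mRNAs of these subunits are read in part by the tRNAs that the knockout leaves without it.

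Footprint libraries held 5357812 to 15517982 counts and input libraries 9000662 to 13637370, and the subunits took 1.14% to 1.56% of footprints and 0.968% to 1.34% of input. Qtrt1 had 0.129 to 1.28 CPM (counts scaled to library size) in the knockout footprint libraries against 4.25 to 8.46 CPM in the wild-type ones, and 1.8 to 2.76 CPM in knockout input against 6.05 to 7.29 CPM in wild-type input. Markers of hippocampal excitatory neurons were found for 10 of 10 genes and summed to 764 to 1510 CPM in every footprint library. They summed to 1230, 1230 and 1310 CPM in knockout female footprints against 936, 1200 and 764 CPM in wild-type female footprints. Female libraries also differed in markers of neighbouring tissue. Summed choroid plexus markers were 9450, 7240 and 2280 CPM in knockout female footprints against 172, 321 and 6030 CPM in wild-type female footprints, and 8820 to 13400 CPM in males of both genotypes. Summed striatum markers were 294, 642 and 212 CPM in knockout female footprints against 1240, 482 and 1070 CPM in wild-type female footprints, and 195 to 249 CPM in males. Their part in the differences between female groups was not tested beyond the fits given beside the results, some of which leave out the animals that stand apart.

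In wild-type hippocampus the footprint levels of the subunits, as CPM per kilobase of coding sequence, differed widely within each complex except complex II. They are given as mean ± SD over the 5 wild-type animals, which include both sexes. In complex I the highest was the small membrane-arm subunit Ndufa1 (1086 ± 424), followed by Ndufc2 (722 ± 41.6). The catalytic-arm subunits Ndufv1 (215 ± 9.43), which binds NADH, and Ndufs1 (137 ± 24.6), which carries iron-sulfur clusters, lay lower on that scale. The lowest of complex I was Ndufab1 (2.66 ± 0.922), the mitochondrial acyl carrier protein.

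Complex II had its membrane anchor Sdhc (534 ± 159 CPM per kilobase) and its flavoprotein Sdha (526 ± 43.3) at indistinguishable footprint levels, above the second anchor Sdhd (374 ± 121) and the iron-sulfur subunit Sdhb (229 ± 7.81). In complex III the highest footprint level was that of Uqcrq (874 ± 225), a small subunit of the ubiquinone site, ahead of the Rieske iron-sulfur protein Uqcrfs1 (390 ± 21.0). The core subunit Uqcrc1 (157 ± 19.7), cytochrome c1, Cyc1 (79.2 ± 9.79), and Uqcrb (65.4 ± 21.1) were lower, and the last 2 overlapped within their spread. In complex IV the small subunit Cox8a (1791 ± 529) and Ndufa4 (1408 ± 293) led, and Cox4i1, a regulatory subunit that binds ATP, stood at 715 ± 79.5. In complex V the rotor subunit Atp5d (1170 ± 323) was highest, with the catalytic Atp5b at 865 ± 78.3, subunit c from Atp5g3 at 764 ± 199, the alpha subunit Atp5a1 at 550 ± 41.9 and the rotor shaft Atp5c1 at 359 ± 55.2.

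Median footprint levels per kilobase of coding sequence were 204 in complex I, 450.1 in complex II, 271 in complex III, 109.5 in complex IV and 345 in complex V. Members with at least 100 footprints in every wild-type library numbered 30 of 36 in complex I, 4 of 4 in complex II, 8 of 9 in complex III, 9 of 18 in complex IV and 12 of 17 in complex V. Over those 9 of complex IV the median was 481.

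**Figure D1:**
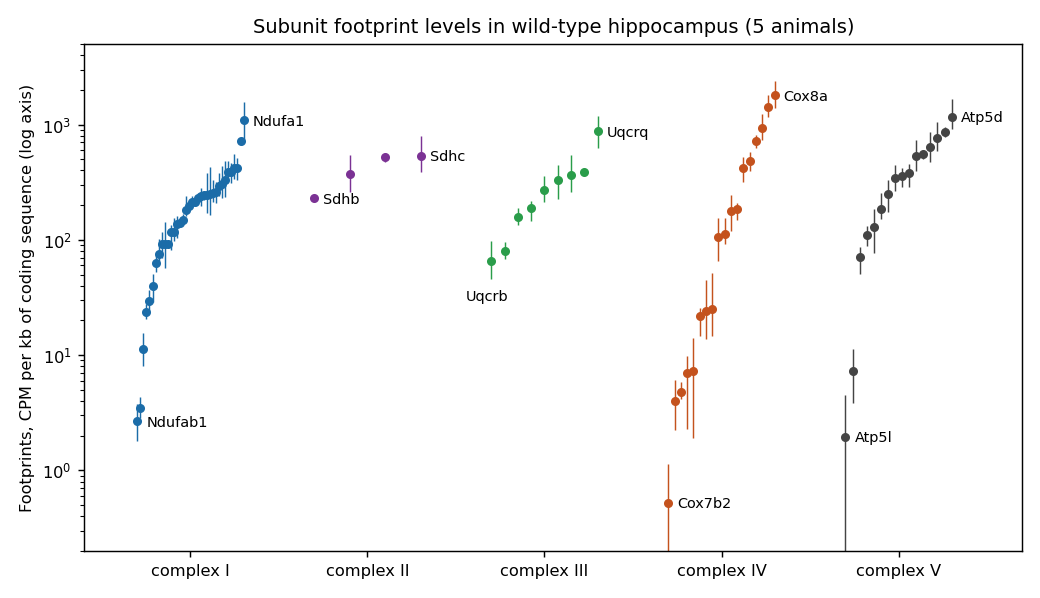
Footprint level of each subunit in wild-type hippocampus, as CPM per kilobase of coding sequence on a log axis, by complex. Points are means of 5 wild-type libraries and bars run from the lowest to the highest library; Atp5g2, with 0 footprints, is not drawn, and the lower bars of Cox7b2 and Atp5l reach 0 and are cut at the axis. The highest members of complexes I, III, IV and V lie at 1086, 874, 1791 and 1170, and complex II spans 229 to 534.

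Subunits that work in fixed ratios in the assembled complex were not all in those ratios as mRNA or footprints. ATP synthase holds equal numbers of alpha and beta subunits, which outnumber the single rotor shaft. The median ratio of Atp5b to Atp5a1 over the 5 wild-type animals was 1.59 in footprints and 2.18 in input RNA, both per kilobase of coding sequence, and that of Atp5b to Atp5c1 was 2.29 in footprints (2.18 to 3.07) and 2.17 in input. Sdha and Sdhb are present in equal numbers in complex II. Their ratio was 2.36 in footprints and 1.83 in input. The ratio of the anchors Sdhc to Sdhd was 1.46 in footprints (1.21 to 1.64) and 1.05 in input (0.992 to 1.13). Per kilobase of the annotated transcript, an alternative chosen after seeing the data, the input ratio of Sdhc to Sdhd was 0.433, so the order of the anchors in input depends on the length used.

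Among paralogues, the forms known from other tissues were low in hippocampus. Cox4i1 exceeded Cox4i2, the lung and low-oxygen form, by 153.7-fold in footprints per kilobase (median of 5 wild-type animals), Cox6a1 exceeded the heart and muscle form Cox6a2 by 26.1-fold, Cox6b1 exceeded the testis form Cox6b2 by 125.0-fold and Cox7a2 exceeded the heart and muscle form Cox7a1 by 23.35-fold. Ndufa4 exceeded Ndufa4l2 by 247-fold. The testis form Cox7b2 had 0 to 3 footprints per wild-type library. Among the genes for subunit c, Atp5g3 exceeded Atp5g1 by 106.0-fold in footprints and by 3.41-fold in input per kilobase of coding sequence, which was 23.35-fold per kilobase of transcript, and Atp5g2 had 0 footprints in all libraries. The 3 genes encode the same mature subunit.

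Some of these low values are uncertain because the reads of a gene can also be placed on a copy of it elsewhere in the genome. In the reference transcripts (GENCODE M21, build GRCm38) every stretch of 28 bases in the coding sequences of Atp5g1, Atp5g2, Atp5l, Cox7c, Ndufab1 and Ndufb4 also occurred in a transcript of another gene, such as a processed pseudogene. That share was 99.3% for Atp5md, 91.9% for Uqcrb, 81.5% for Atp5h, 78.3% for Ndufa12 and 76.9% for Cox5b, and at least 50% for 17 members, whereas 28 members shared none. The log2 ratio of footprint to input CPM in wild type had a median of −2.29 (−4.07 to 0.14) in the 15 measurable members with at least 50% shared sequence, against 0.32 (−1.72 to 3.73) in the other 66. Across the 81 members Spearman's rho between shared sequence and this ratio was −0.722, a description across genes of the same libraries. The labels and headers do not say how reads with several placements were counted. Among members below 50%, the ratio was highest for Uqcrq (3.73), Atp5d (2.57), Ndufa4l2 (2.02, on 1 to 10 input counts), Sdhc (1.90), Sdhd (1.53) and Ndufa1 (1.30).

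Knockout females were first set against wild-type females in footprints. Of the 84 subunits 80 had enough footprints to be tested, and 6 were higher and 3 lower in knockout females at an adjusted p under 0.05 (edgeR quasi-likelihood test, Benjamini-Hochberg over 13143 genes), where 7.06% of all tested genes were called. Thus 9 of 80 changed, with a subunit median log2 difference of 0.012 against 0.0030 over all genes, and 45 of 80 lay above 0. The calls fell in complex I (3 higher, 2 lower of 36; median 0.0077), complex IV (1 lower of 16; 0.019) and complex V (3 higher of 15; 0.043). None of 4 in complex II (median −0.12) and none of 9 in complex III (0.014) passed with edgeR, with 0 and 3 of them at an unadjusted p under 0.05. DESeq2 called 7 higher and 4 lower among all subunits, where it called 9.67% of the genes it gave an adjusted p. Atp5g2, Atp5l, Cox7b2 and Ndufa4l2 were too low to test.

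The call with the lowest adjusted p was Ndufa1, the X-linked membrane-arm subunit of complex I. Ndufa1 had 331, 311 and 230 footprint CPM in knockout females against 161, 164 and 172 CPM in wild-type females. Every knockout female lay above every wild-type female, a log2 difference of 0.81 ± 0.15 (SE; edgeR adjusted p = 0.0109, n = 3 each). Both male groups overlapped, at 327 and 485 CPM in knockout males against 324 and 336 CPM in wild-type males, so the wild-type females were the low group. Ndufa1 shared 5.91% of its coding sequence with other genes over 28 bases.

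Cox5b, a matrix-facing subunit of complex IV, moved the other way. Cox5b had 17.1, 23.6 and 25.0 footprint CPM in knockout females against 35.8, 36.9 and 41.8 CPM in wild-type females, a log2 difference of −0.80 ± 0.16 (SE; edgeR adjusted p = 0.0148, n = 3 each). No knockout female reached a wild-type female, and these values rested on 141 to 222 counts in knockout females and 210 to 295 in wild-type females. Males stood higher and overlapped, at 54.2 and 48.0 CPM in knockout males against 45.2 and 59.8 CPM in wild-type males. With 76.9% of its coding sequence shared, the Cox5b level is uncertain.

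The coding sequences of these 2 mRNAs are shown, the whole of Ndufa1 and the first 300 bases of Cox5b. They had the lowest adjusted p in each direction, though not the largest log2 difference. Capitals mark the codons of the queuosine tRNAs (AAC or AAT for asparagine, GAC or GAT for aspartate, CAC or CAT for histidine, and TAC or TAT for tyrosine), in the reading frame from the start codon, from GENCODE M21 transcripts.
Ndufa1: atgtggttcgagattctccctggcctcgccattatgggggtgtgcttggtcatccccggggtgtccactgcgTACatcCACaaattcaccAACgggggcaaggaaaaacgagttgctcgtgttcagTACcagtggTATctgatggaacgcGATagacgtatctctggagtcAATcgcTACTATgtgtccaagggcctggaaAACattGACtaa
Cox5b: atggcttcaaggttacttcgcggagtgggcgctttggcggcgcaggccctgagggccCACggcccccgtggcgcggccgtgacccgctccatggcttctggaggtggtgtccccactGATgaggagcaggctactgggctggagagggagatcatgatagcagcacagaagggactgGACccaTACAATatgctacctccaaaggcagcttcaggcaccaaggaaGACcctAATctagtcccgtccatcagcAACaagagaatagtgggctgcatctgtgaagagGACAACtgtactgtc
Ndufa1 has 11 such codons among 71 and a coding GC content of 51.6%, and Cox5b has 16 among 130, 10 of them in the stretch shown, and a coding GC content of 58.2%.

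The other complex I calls were 2 higher and 2 lower. Ndufv2, an iron-sulfur subunit of the NADH-oxidising arm, had 198, 201 and 195 footprint CPM in knockout females against 142, 148 and 155 CPM in wild-type females, a log2 difference of 0.42 ± 0.10 (edgeR adjusted p = 0.0314, n = 3 each). The groups were well apart and each was narrow. Ndufa12, an accessory subunit of the peripheral arm, had 7.40, 6.70 and 7.20 CPM in knockout females against 3.54, 4.04 and 5.10 CPM in wild-type females, a log2 difference of 0.74 ± 0.21 (edgeR adjusted p = 0.0481), on 23 to 64 counts and with 78.3% shared sequence.

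Ndufa13, also known as GRIM-19, an accessory subunit at the junction of the arms, was lower. Ndufa13 had 116, 102 and 110 footprint CPM in knockout females against 154, 150 and 135 CPM in wild-type females, a log2 difference of −0.42 ± 0.12 (edgeR adjusted p = 0.0484). Ndufa7, an accessory subunit of the peripheral arm, had 7.40, 3.87 and 7.31 CPM in knockout females against 14.5, 9.83 and 11.2 CPM in wild-type females, a log2 difference of −0.93 ± 0.26 (edgeR adjusted p = 0.0490). Neither pair of female groups overlapped, and the Ndufa7 values rested on 30 to 94 counts.

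The 3 calls of complex V were all higher and belong to the membrane rotor and the peripheral stalk. Atp5g3, for subunit c of the rotor ring, had 383, 354 and 328 footprint CPM in knockout females against 284, 251 and 264 CPM in wild-type females, a log2 difference of 0.42 ± 0.10 (edgeR adjusted p = 0.0282). The Atp5g3 sequence is shared with no other gene over 28 bases, and its groups were apart. Atp5h, the stalk subunit d, had 124, 127 and 106 CPM in knockout females against 84.8, 73.0 and 88.0 CPM in wild-type females (0.54 ± 0.15, edgeR adjusted p = 0.0431), with 81.5% shared sequence. Atp5o, the stalk's oligomycin-sensitivity subunit, had 207, 203 and 152 CPM in knockout females against 139, 111 and 149 CPM in wild-type females (0.49 ± 0.14, edgeR adjusted p = 0.0478), so the lowest knockout female stood just above the highest wild-type one. The catalytic subunit Atp5b, with 1377, 1346 and 1299 CPM in knockout females against 1482, 1264 and 1506 CPM in wild-type females, overlapped and was not called.

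**Figure D2:**
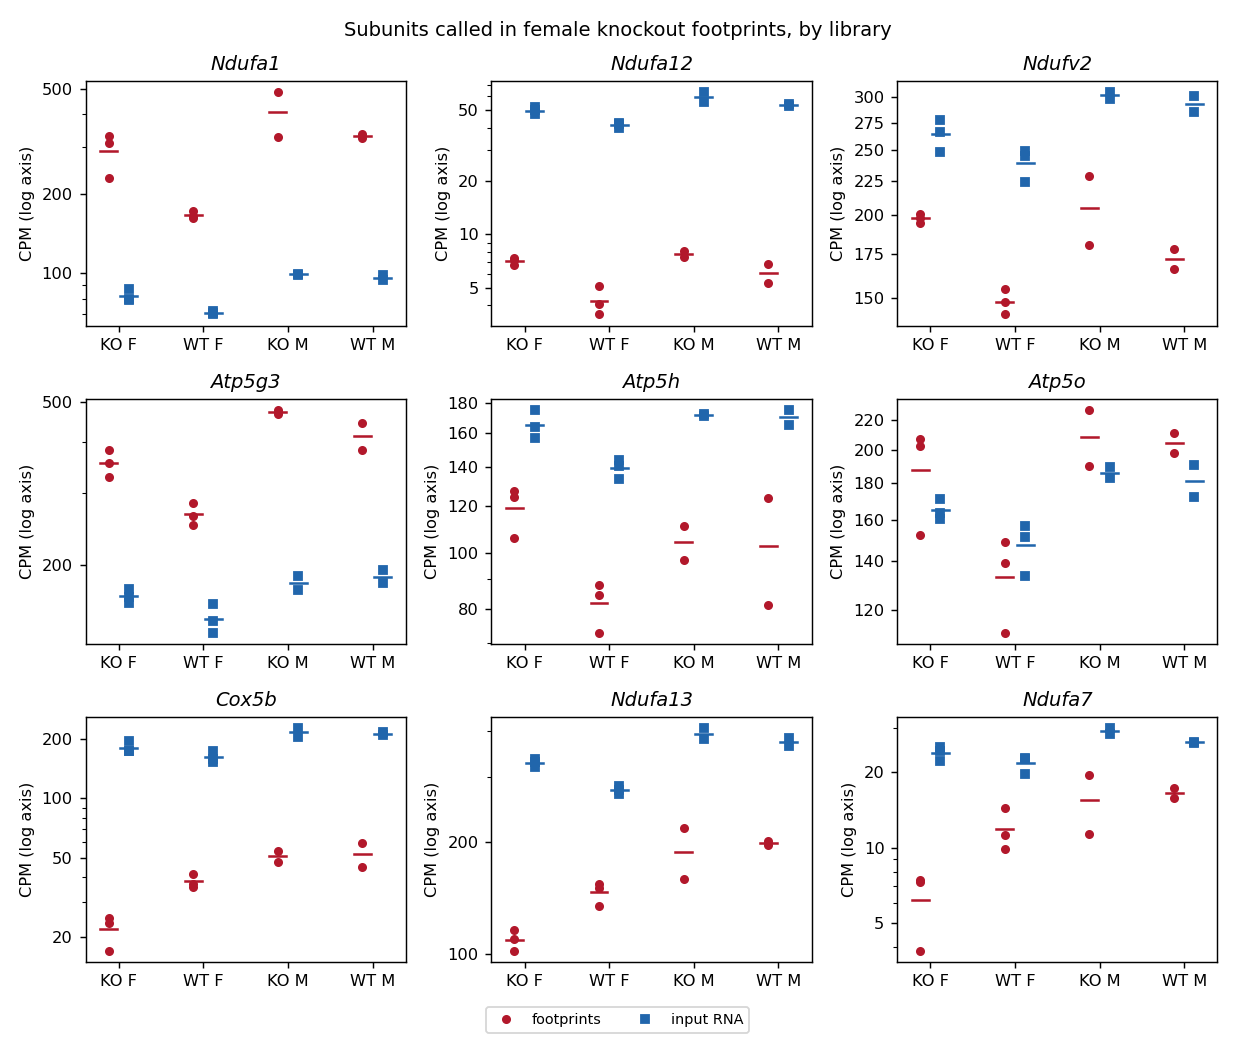
Levels in CPM (log axis) of the 9 subunits whose footprints were called between knockout and wild-type females, 1 panel each, in knockout females, wild-type females, knockout males and wild-type males (red circles, footprints; blue squares, input RNA). Points are libraries and lines are group means; in footprints the female groups overlap in none of the 9 panels, and Cox5b, Ndufa13 and Ndufa7 are lower in knockout females in footprints but not in input.

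No member of complexes II and III passed. Sdha, which oxidises succinate, had 1080, 1070 and 1070 footprint CPM in knockout females against 1070, 1120 and 1140 CPM in wild-type females. Sdhb had the lowest p of complex II, with 160, 175 and 176.5 CPM in knockout females against 187, 191 and 205 CPM in wild-type females, a log2 difference of −0.19 ± 0.09 (edgeR adjusted p = 0.215). Uqcrb, which had the lowest p of complex III, stood at 36.9, 32.2 and 25.0 CPM in knockout females against 24.8, 18.1 and 18.4 CPM in wild-type females (0.62 ± 0.24, edgeR adjusted p = 0.127), with 91.9% shared sequence. Cyc1 had 64.9, 59.8 and 68.1 CPM in knockout females against 73.2, 67.1 and 79.2 CPM in wild-type females and was not called.

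Direction in female footprints went with base composition. The 6 subunits higher in knockout females had a coding GC content of 46.45% to 52.8%, and the 3 lower ones at least 58.21%. Spearman's rho between coding GC and the log2 difference was −0.421 over 80 subunits and −0.446 over 12984 genes, and that with the percentage of queuosine-tRNA codons was 0.198 and 0.215, descriptions across genes of the same libraries. With per-library trends on coding GC and length taken out, an alternative chosen after seeing the data, 3 subunits were higher and 3 lower where 5.11% of all genes were called. Ndufa1 (0.70, edgeR adjusted p = 0.0272) and Cox5b (−0.72, edgeR adjusted p = 0.016) stayed among them, while Atp5g3 went to 0.25 (edgeR adjusted p = 0.0935). Whether base composition sets these differences was not tested.

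The count of 9 depended on the animals. It was 0 without knockout female 1 or wild-type female 1, 2 without knockout female 2 or wild-type female 2, 3 without wild-type female 3, 5 without knockout female 3 and 13 without either wild-type male. Ndufa1 and Cox5b were called in 8 of the 10 fits that leave out 1 animal, at 0.71 to 0.96 and −0.90 to −0.65, and the other 7 in 2 to 5 of them. With both marker levels as covariates the count was 0. The share of all genes called is not given for that fit or for the fits without 1 animal. These counts are thus not read as a result about the subunits. Leaving out the 2 wild-type females of lowest choroid plexus level, or the 3 females of highest striatum level, left 1 wild-type female. In those 2 fits and with the covariates the log2 difference was 0.69 to 0.78 for Ndufa1 and −0.92 to −0.66 for Cox5b. In the same female comparison 2 of 12 choroid plexus markers were higher (median 1.58) and 3 of 11 striatum markers lower (median −1.36). Of all tested genes 7.06% were called there. All 12 choroid plexus markers lay above 0, and 0 of 11 striatum markers did.

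In input RNA the female difference ran mostly upward and was small. Of 81 tested subunits 6 were higher and 0 lower in knockout females (edgeR adjusted p under 0.05 over 14164 genes), where 3.48% of all tested genes were called, most of them lower. The subunit median was 0.15 against 0.0092 over all genes, and 76 of 81 subunits lay above 0. Medians were 0.14, 0.19, 0.11, 0.17 and 0.17 for complexes I to V, and complexes I, II and III had 1 call each and complex V 3. None of 16 in complex IV was called by edgeR, with 7 at an unadjusted p under 0.05, Cox6c being nearest (0.25 ± 0.07, edgeR adjusted p = 0.0588). DESeq2 called 7 subunits in all, where it called 5.16% of genes.

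Sdhd, a membrane anchor of complex II, had 65.0, 65.7 and 65.3 input CPM in knockout females against 48.9, 50.1 and 54.4 CPM in wild-type females, a log2 difference of 0.35 ± 0.07 (edgeR adjusted p = 0.0220, n = 3 each). Uqcr10, a small subunit of complex III, had 55.0, 51.4 and 47.95 CPM in knockout females against 41.5, 35.3 and 39.8 CPM in wild-type females (0.40 ± 0.09, edgeR adjusted p = 0.0349). Ndufa13 had 330, 335 and 318 CPM in knockout females against 276, 269 and 284 CPM in wild-type females (0.25 ± 0.05, edgeR adjusted p = 0.0346). Ndufa13 was thus higher in input and lower in footprints of the same knockout females, and its groups overlapped in neither assay.

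The complex V calls in input were Atp5g1 (0.32 ± 0.08, edgeR adjusted p = 0.0415), Atp5h (0.25 ± 0.06, adjusted p = 0.0472) and the small membrane subunit Atp5md (0.27 ± 0.07, adjusted p = 0.0484). Atp5h had 164, 175 and 157 CPM in knockout females against 144, 134 and 141 CPM in wild-type females, and was called in both assays in females, higher in each. All 3 have most of their coding sequence in common with other genes.

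The input count was 0 without knockout female 1, knockout female 2 or wild-type female 1, 1 without knockout female 3 or wild-type female 3, 2 without either knockout male and 3 without wild-type female 2. It was also 0 in each of the 3 fits on tissue markers, where summed choroid plexus markers of input were 3530, 2720 and 873 CPM in knockout females against 83.9, 167 and 1920 CPM in wild-type females. The subunit median stayed above 0 there and was 0.25 with both marker levels as covariates. Shorter coding sequences lay higher in knockout females, with a Spearman's rho between coding length and the log2 difference of −0.51 over 81 subunits against −0.223 over 13978 genes. With the GC and length trends taken out the subunit median was 0.073 and the count 0.

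**Figure D3:**
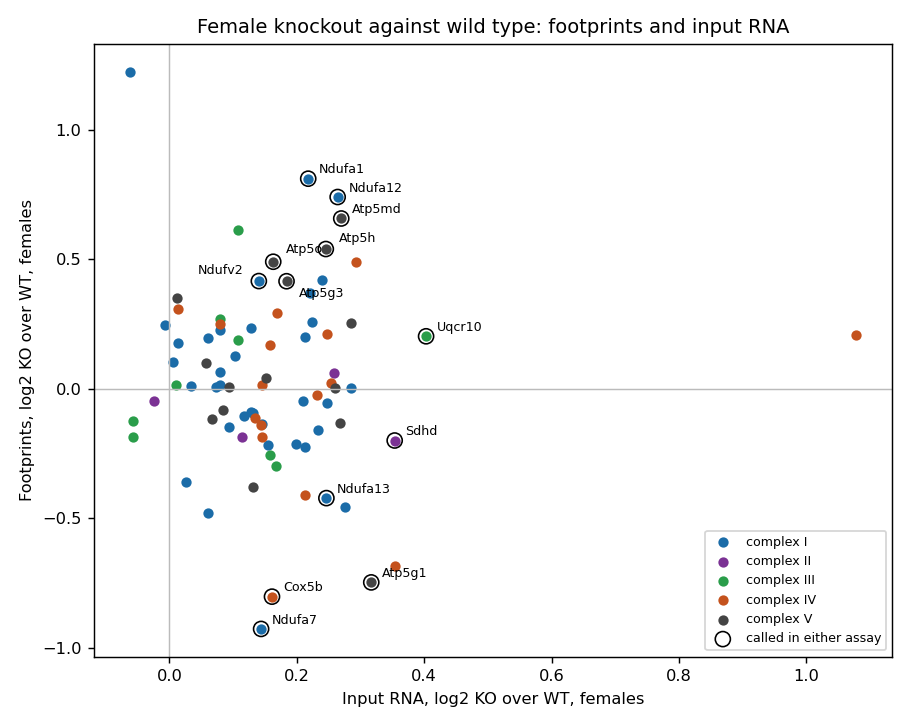
Log2 difference of knockout over wild-type females in footprints against that in input RNA, 1 point per subunit tested in both and coloured by complex. Ringed and named are the 13 subunits called in either assay; most points lie right of 0 on the input axis, with a median of 0.15, while footprints spread to both sides of 0 with a median of 0.012.

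Footprints relative to input, the translational efficiency, were tested in 1 model of all 20 libraries, as the genotype difference in footprints minus that in input. In females 1 of 82 subunits changed, where 0.0424% of all tested genes were called. This was Cox5b, whose input level was 174, 195 and 173 CPM in knockout females against 174, 152 and 158 CPM in wild-type females and overlapped while its footprints were lower, a log2 difference in translational efficiency of −0.95 ± 0.17 (edgeR adjusted p = 0.0485, n = 3 each). Next came Ndufa13 (−0.65 ± 0.13, edgeR adjusted p = 0.0755) and, in the other complexes, Sdhd (−0.54 ± 0.13, adjusted p = 0.137), Atp5g1 (−1.06 ± 0.26, adjusted p = 0.155) and Uqcrh, the hinge protein of complex III (−0.40 ± 0.13, adjusted p = 0.207). The subunit median was −0.11 against 0.015 over all genes. Medians were −0.051, −0.23, −0.051, −0.23 and −0.081 for complexes I to V, and 24 subunits had an unadjusted p under 0.05.

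Footprints and input of 1 animal came from the same lysate, so the efficiency fit was repeated with the animal as a block. It called 7 subunits in females where 2.79% of all genes were called. Ndufa1 was higher in knockout females, at 0.60 (edgeR adjusted p = 0.0172). Lower, with the adjusted p in parentheses, were Cox5b at −0.95 (0.00203), Ndufa13 at −0.65 (0.00598), Ndufb2, a membrane-arm subunit, at −0.72 (0.0131), Sdhd at −0.53 (0.015), Ndufa7 at −1.05 (0.0188) and Uqcrh at −0.40 (0.0459). DESeq2 called 5, all lower, namely Cox5b, Ndufa13, Ndufa7, Ndufb2 and Sdhd, where it called 1.57% of genes. The unblocked count was 0 without knockout female 1 or 2 or any wild-type female, 2 without either knockout male, and 0 in both fits that leave out females by marker level and with the GC and length trends taken out.

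In males no subunit was called. Footprints gave 0 of 80 in males, where 0% of all tested genes were called by edgeR, with 1 subunit at an unadjusted p under 0.05 (Ndufb6, 0.31 ± 0.13, edgeR adjusted p = 0.963) and 0 called by DESeq2. Input gave 0 of 81, where 0% of all genes were called by edgeR, with 2 subunits at an unadjusted p under 0.05 and 0 called by DESeq2. Translational efficiency gave 0 of 82 with 0% called over all genes, 2 at an unadjusted p under 0.05 and 0 by DESeq2. Subunit medians in males were 0.024 in footprints, 0.0025 in input and 0.044 in translational efficiency, and 41 of 81 input values lay above 0. With 2 males per genotype a difference has to be larger to be called than in females.

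Averaged over both sexes, no subunit was called by edgeR in footprints (0 of 80, with 0.00761% of all genes called and 24 subunits at an unadjusted p under 0.05). The lowest p of complexes I, V and IV in footprints were those of Ndufa1 (0.55 ± 0.12, edgeR adjusted p = 0.0615), Atp5g3 (0.30 ± 0.08, adjusted p = 0.0804) and Cox5b (−0.41 ± 0.12, adjusted p = 0.101). DESeq2 called 5 subunits there, all higher, where it called 4.92% of genes. The footprint count moved with 1 animal left out, in fits whose share of all genes called is not given. It was 1 without wild-type female 2, and it is not read as a result about the subunits. Input gave 0 of 81 where 0.734% of all genes were called, with a subunit median of 0.077, 67 of 81 above 0, 23 at an unadjusted p under 0.05 and 1 called by DESeq2, which called 3.72% of genes. The lowest p in input was that of Atp5md (0.21 ± 0.05, edgeR adjusted p = 0.0802).

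For translational efficiency over both sexes edgeR called 0 of 82, where 0% of all genes were called, with 23 at an unadjusted p under 0.05 and 3 called by DESeq2, which called 0.845% of genes. With the animal as a block 4 subunits were called where 0.806% of all genes were, Cox5b (−0.48), Ndufa13 (−0.40) and Ndufb2 (−0.55) lower and Ndufa1 (0.42) higher in knockouts. The unblocked value of Ndufb2 was −0.56 ± 0.14 (edgeR adjusted p = 0.245).

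The female difference was not shown to differ from the male one for any subunit. The difference between them, as an interaction, gave 0 of 80 subunits in footprints where 0% of all genes were called by edgeR, 7 at an unadjusted p under 0.05 and 0 by DESeq2. Input gave 0 of 81 with 0% of all genes called, 7 at an unadjusted p under 0.05 and 0 by DESeq2, and translational efficiency gave 0 of 82 with 0% called, 6 at an unadjusted p under 0.05 and 0 by DESeq2. The lowest p in footprints was that of Cox5b (−0.78 ± 0.25, edgeR adjusted p = 0.378), and that in input was of Cox6c (0.32 ± 0.11, edgeR adjusted p = 0.363). Subunit medians of the interaction were 0.033 in footprints and 0.14 in input, with 73 of 81 input values above 0.

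The widest separation of the subunits among the comparisons made was between wild-type females and wild-type males, which also differed in age. In footprints 1 subunit was higher and 32 were lower in wild-type females of 80 tested, where 16.5% of all genes were called. The subunit median was −0.43 against −0.024 over all genes, and 65 of 80 lay below 0. Calls were spread over complex I (16 of 36), complex II (2 of 4), complex III (3 of 9), complex IV (5 of 16) and complex V (7 of 15). In input 47 of 81 were lower and 0 higher in wild-type females, where 14.2% of all genes were called, with a median of −0.33 against −0.019 over all genes. DESeq2 called 34 subunits in footprints, where it called 18.1% of genes, and 43 in input, where it called 14%. By complex the input calls were 21, 2, 4, 10 and 10 for complexes I to V. These wild-type females are those that the knockout females were set against, so the 2 comparisons share 3 libraries per assay and their values are given side by side without an overlap.

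Cox6c, a small subunit of complex IV, averaged 17.1 ± 2.89 footprint CPM in wild-type females (SD, n = 3) and 35.8 ± 0.38 CPM in wild-type males (n = 2), a log2 difference of −1.06 ± 0.16 (edgeR adjusted p = 0.00139). Knockout animals lay at the level of their sex, at 19.04, 17.4 and 15.9 CPM in knockout females and 39.1 and 32.8 CPM in knockout males. Atp5k, a membrane subunit of ATP synthase, averaged 104.7 ± 2.22 CPM in wild-type females and 186.3 ± 0.19 CPM in wild-type males (−0.83 ± 0.10, edgeR adjusted p = 0.000388), and knockout females had 101, 105 and 108.5 CPM. Atp5k is thus as low in knockout as in wild-type females.

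The lowest p of complexes I, III and IV in footprints were those of Ndufb3, Uqcrh and Cox8a, all lower in wild-type females. Ndufb3 averaged 77.2 ± 3.36 CPM in wild-type females and 143.9 ± 13.15 CPM in wild-type males (−0.90 ± 0.12, edgeR adjusted p = 0.000706). Uqcrh averaged 67.2 ± 5.34 CPM in wild-type females and 120.0 ± 1.74 CPM in wild-type males (−0.83 ± 0.12, edgeR adjusted p = 0.000877), and Cox8a 295.2 ± 5.05 CPM in wild-type females and 497.5 ± 12.32 CPM in wild-type males (−0.75 ± 0.11, edgeR adjusted p = 0.00115). In none of these did a wild-type female reach a wild-type male.

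Ndufa1 and Sdhd were also lower in wild-type females, Ndufa1 at 165.5 ± 5.6 CPM in wild-type females and 329.9 ± 8.45 CPM in wild-type males (−0.99 ± 0.16, edgeR adjusted p = 0.00237), and Sdhd with a log2 difference of −0.77 ± 0.13 (edgeR adjusted p = 0.00237). Ndufa1 in knockout females, at 230 to 331 CPM, lay between the wild-type females and the wild-type males or level with the males. Sdhd in knockout females, at 118, 117 and 132 CPM, did not lie above the wild-type females at 139, 124 and 157 CPM.

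The long iron-sulfur subunit Ndufs1 was the 1 subunit higher in wild-type females, at 336.5 ± 13.21 footprint CPM against 242.5 ± 24.02 CPM in wild-type males (0.47 ± 0.11, edgeR adjusted p = 0.0145). Sdha, the longest of complex II, was likewise not lower, at 1070, 1120 and 1140 CPM in wild-type females against 943 and 975 CPM in wild-type males, and was not called (0.21 ± 0.09, edgeR adjusted p = 0.146).

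In input RNA the lowest p was that of Ndufa2, an accessory subunit of complex I, at 77.2 ± 3.07 CPM in wild-type females and 111.7 ± 6.13 CPM in wild-type males (−0.53 ± 0.07, edgeR adjusted p = 0.000975). Ndufb6 (−0.48 ± 0.06, 0.00109) and Ndufa13 (−0.44 ± 0.06, 0.00123) followed, with the edgeR adjusted p after each difference. The lowest p of the other complexes were those of Sdhd (−0.50 ± 0.08, 0.00222), Uqcr10 (−0.57 ± 0.10, 0.00382), Cox6c (−0.51 ± 0.07, 0.00147) and Atp5md (−0.48 ± 0.07, 0.00225), for complexes II to V, all lower in wild-type females. Cox6c averaged 135.9 ± 7.16 input CPM in wild-type females and 193.9 ± 4.29 CPM in wild-type males, a smaller gap than in its footprints.

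The member medians by library showed the same order of groups. For each subunit with at least 10 reads in every library the log2 CPM was taken as its deviation from that subunit's mean over the 10 libraries of the assay, and the median was taken over subunits, 74 in footprints and 79 in input. In footprints the medians were −0.11, −0.073 and −0.093 for knockout females, −0.15, −0.23 and −0.093 for wild-type females, 0.24 and 0.18 for knockout males, and 0.20 and 0.18 for wild-type males. In input they were −0.018, 0.048 and −0.10 for knockout females, −0.12, −0.28 and −0.13 for wild-type females, 0.16 and 0.15 for knockout males, and 0.10 and 0.20 for wild-type males. All females lay below all males in both assays, and in input the 3 knockout females lay above the 3 wild-type females.

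**Figure D4:**
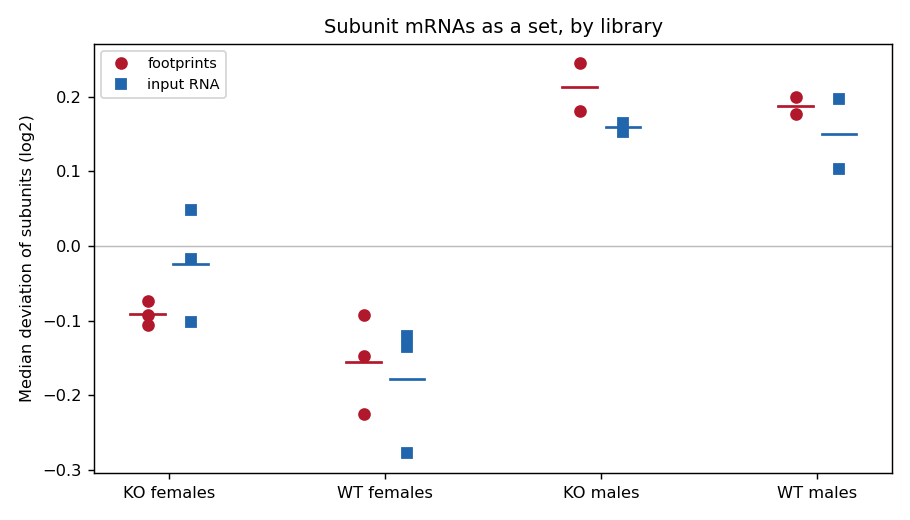
Median over subunits of the log2 CPM deviation from each subunit's own mean, 1 point per library with lines at group means, for footprints (red circles, 74 subunits) and input RNA (blue squares, 79 subunits). Groups are knockout females, wild-type females, knockout males and wild-type males; every female library lies below every male library, and knockout females lie above wild-type females in input (−0.10 to 0.048 against −0.28 to −0.12).

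The difference between the sexes went with the length of the coding sequence. Spearman's rho between coding length and the log2 difference of wild-type females over wild-type males was 0.503 over 80 subunits in footprints, against 0.485 over 12984 genes, and 0.708 over 81 subunits in input, against 0.417 over 13978 genes, again descriptions across genes of the same libraries. The 32 subunits lower in wild-type female footprints had coding lengths of 159 to 1407 bases with a median of 369.0, and Ndufs1, the higher one, had 2184. With the trends on coding GC and length taken out, an alternative chosen after seeing the data, 2 subunits were higher and 5 lower of 80 in footprints (median −0.062), where 8.05% of all genes were called, and 6 of 81 were lower in input (median −0.10), where 5.29% of all genes were. Most subunits are short, and whether length, age, sex or the tissue dissected with the hippocampus sets the difference was not tested.

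Both counts also moved with the animals left out, in fits whose share of all genes called is not given. Footprint calls were 21 without wild-type female 1 and 22 without wild-type male 2, 5 without the 2 wild-type females of lowest choroid plexus level and 6 without the 3 females of highest striatum level. Input calls were 26 without wild-type male 2, 16 without the low choroid plexus females and 29 without the high striatum females. In the same footprint comparison 5 of 12 choroid plexus markers were lower (median −1.93) and 10 of 11 striatum markers higher (median 2.14) in wild-type females, and in input 2 of 12 were lower and 8 of 12 higher. Hippocampal excitatory neuron markers also lay lower in wild-type female footprints, 4 of 10 by the test and none above 0 (median −0.54), as did meningeal fibroblast markers, 4 of 8 by the test (median −0.88), and 1 of 7 oligodendrocyte markers was lower, with none above 0 (median −0.45). In input 0 of 10 excitatory neuron, 2 of 7 meningeal fibroblast and 0 of 7 oligodendrocyte markers were lower, with medians of −0.34, −0.33 and −0.30. Of all genes 16.5% were called in footprints and 14.2% in input. Other lists differed in direction in footprints. Higher were 2 of 6 parvalbumin interneuron and 1 of 7 microglia markers, with 0 lower. Astrocyte markers had 1 higher and 2 lower of 7, and 1 of 5 erythrocyte markers was lower. The part of these markers in the subunits' difference was not tested.

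**Figure D5:**
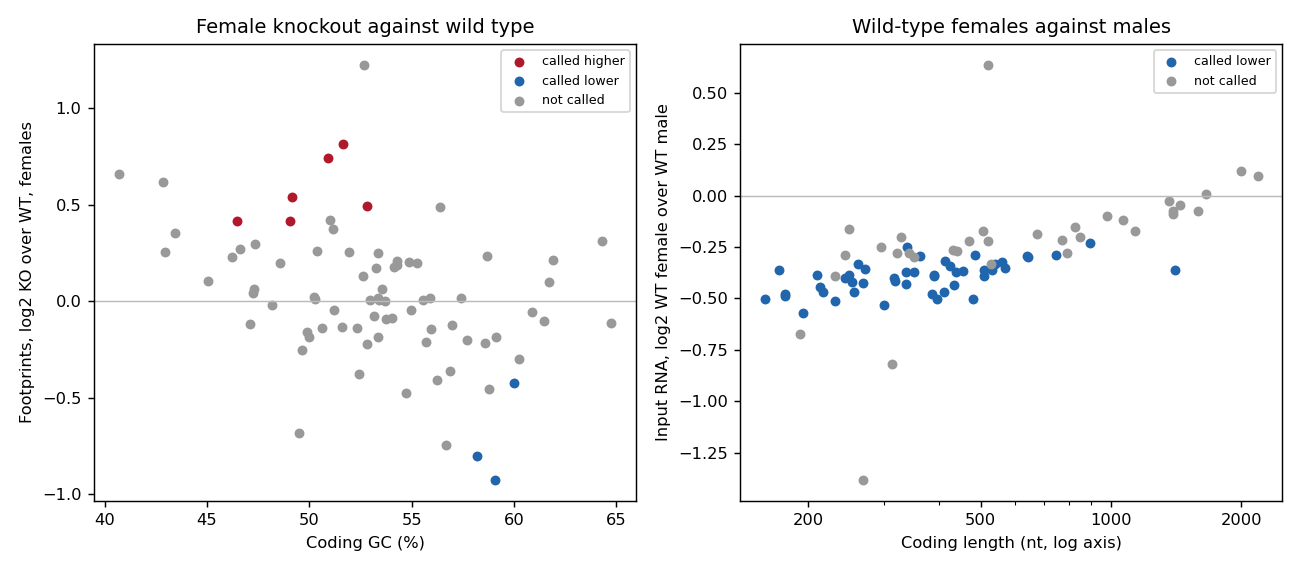
Left, log2 difference of knockout over wild-type females in footprints against coding GC content in percent for 80 subunits; right, log2 difference of wild-type females over wild-type males in input RNA against coding length in bases (log axis) for 81 subunits. Colours mark subunits called higher (red), called lower (blue) and not called (grey). The points fall with GC content on the left (Spearman's rho −0.421) and climb with length on the right (0.708).

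Other genes of the pathway were read from lists. Of 46 assembly factors 44 were tested in female footprints. In knockout females 1 was higher and 1 lower, where 7.06% of all tested genes were called. Cox20, a chaperone of the complex IV subunit mt-Co2, was higher (1.36 ± 0.27, edgeR adjusted p = 0.0148), and Coa3, which binds newly made mt-Co1, was lower in footprints (−0.81 ± 0.15, edgeR adjusted p = 0.0117) and higher in input (0.37 ± 0.07, edgeR adjusted p = 0.0244). Coa3 was also called in translational efficiency (−1.16 ± 0.17, edgeR adjusted p = 0.0111). In input 38 of 45 assembly factors lay above 0, with a median of 0.11 beside 0.15 for the subunits.

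The mitochondrially encoded subunits, which are made by mitochondrial ribosomes, had 0 of 9 called by edgeR in female footprints, with all 9 above 0, a median of 0.29 and 1 at an unadjusted p under 0.05. In input 0 of 13 were called, 4 lay above 0 and the median was −0.11, with 1 at an unadjusted p under 0.05. In males all 9 also lay above 0 in footprints (median 0.48), with 0 called. Male input had 11 of 13 above 0 (median 0.13), with 0 called. Of 16 enzymes of the tricarboxylic acid cycle and its entry 0 were called in female footprints (median −0.014) and 0 in input (0.0067), with 1 at an unadjusted p under 0.05 in each. Among regulators and carriers 1 of 12 was higher in female footprints, where 7.06% of all tested genes were called. It was Gabpa, a transcription factor of nuclear genes for respiratory subunits (0.63 ± 0.16, edgeR adjusted p = 0.0348). A single call is near the share over all genes and is not read as a result about the list. In input 0 of 13 regulators and carriers were called, with 1 at an unadjusted p under 0.05. Between wild-type females and wild-type males, 2 of 44 assembly factors were lower in footprints, where 16.5% of all genes were called. In input 7 of 45 were lower in wild-type females, where 14.2% of all genes were called. Of the cycle enzymes 3 of 16 were higher and 0 lower in wild-type female footprints (median 0.12). Mitochondrially encoded subunits had 0 of 9 called there (median 0.14), and regulators and carriers 1 higher and 0 lower of 12 (median 0.010). In input 1 of 16 cycle enzymes was lower and 0 of 13 mitochondrially encoded subunits were called. Regulators and carriers had 1 higher and 3 lower of 13 in input.

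The deposited codon tables were used to ask where ribosomes stood on the subunit mRNAs. They list 34 of the 84 members in some library and 23 in all, and hold 16.6% of the subunit footprints of the gene table (180075 of 1087897). The part held varied by member, from 97.8% for Uqcrfs1, 89.8% for Ndufa1 and 71.3% for Sdha to 5.79% for Atp5b and 0.327% for Cox5b, so Cox5b cannot be read by codon. Codons were counted 1 upstream of the codon listed. The labels and headers do not say which ribosomal site that is.

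Pooled over the subunit mRNAs, codons of the queuosine tRNAs held 20.0%, 19.2% and 20.0% of footprints in knockout females against 21.0%, 21.2% and 21.3% in wild-type females. The groups did not overlap, with a log2 difference of −0.10. Over all mRNAs the knockout females held 22.4% to 22.9% against 22.0% to 22.8% in wild-type females (0.026). In males the subunit shares overlapped, at 20.5% and 21.1% in knockout males against 20.2% and 21.05% in wild-type males. With the listed codon counted in place of the one upstream the female log2 difference was 0.37, so its direction depends on the position read. No test was made of these shares.

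In females, tyrosine codons went one way over all mRNAs and the other in the share pooled over the subunits. Over all mRNAs they held 4.01% to 4.17% of footprints in knockout females against 2.92% to 3.00% in wild-type females, a log2 difference of 0.47. On the subunit mRNAs they held 2.78%, 2.51% and 3.32% in knockout females against 3.62%, 3.51% and 3.91% in wild-type females, a log2 difference of −0.37. With each mRNA given equal weight the subunit difference was −0.12, and with the listed codon 0.35. At equal weight the female groups overlapped, at 2.09%, 1.55% and 2.66% in knockout females against 2.605%, 2.17% and 1.95% in wild-type females. Knockout males then had 2.59% and 2.44% against 1.92% and 2.25% in wild-type males. The direction on the subunits thus depends on the weighting, the position read and the sex.

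The queuosine-codon share was 17.0% to 17.8% in knockout females against 15.6% to 17.1% in wild-type females on complex I, and these overlapped. It was 25.7% to 26.2% in knockout females against 25.9% to 27.4% in wild-type females on complex II, and 11.5% to 12.9% in knockout females against 10.2% to 12.6% in wild-type females on complex III, which overlapped too. Knockout females had 12.6% to 18.0% on complex IV against 36.9% to 45.9% in wild-type females, and 9.93% to 11.3% on complex V against 19.5% to 25.2% in wild-type females. The complex IV values rested on 143 to 222 footprints per female library. Over the 10 libraries the codon tables held 1954 footprints of Cox8a and 402 of Cox6a2 in complex IV, and 6055 of Atp5b and 50 of Atp5d in complex V. The Atp5b share was 9.99%, 10.9% and 11.3% in knockout females against 25.2%, 22.5% and 19.6% in wild-type females; knockout males had 12.3% and 11.7% against 16.2% and 21.0% in wild-type males. Atp5b thus lay lower in knockouts of both sexes, almost wholly at aspartate codons, and rested on 5.79% of its footprints.

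On 3 complex I mRNAs the share was higher in knockout females and on another lower. How often the female groups stood apart on other mRNAs is not given, so these are descriptions of single mRNAs. Over all mRNAs 43.9% of single codon sites, read below, did not overlap between female groups. Ndufb9, a membrane-arm subunit, had 29.1%, 26.8% and 30.3% in knockout females against 20.7%, 21.6% and 20.8% in wild-type females; knockout males had 27.6% and 27.9% against 26.4% and 19.9% in wild-type males. Ndufa8, an accessory subunit on the intermembrane side, had 44.8%, 36.8% and 31.2% in knockout females against 22.6%, 23.3% and 20.8% in wild-type females. Ndufa2 had 24.9%, 29.9% and 23.4% in knockout females against 20.1%, 19.6% and 19.6% in wild-type females, nearly all at asparagine codons, and its male groups overlapped. Ndufa1 had 4.91%, 7.18% and 6.63% in knockout females against 10.7%, 10.4% and 12.2% in wild-type females. The shares of Sdha, Sdhb, Sdhd, Uqcrfs1, Ndufa13 and Ndufb6 overlapped between female groups.

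Single codons were read where a site had at least 200 footprints over all libraries and its mRNA at least 200 in each, which left 172 sites on 11 subunit mRNAs, 51 of them on Sdha, among 10263 sites on 788 mRNAs. Of the 172, 36 were higher and 40 lower in every knockout female than in any wild-type female, where 43.9% of all sites did not overlap in either direction. In males 19 were higher and 21 lower, where 25.8% of all sites did not overlap. Among 30 subunit sites with a queuosine-tRNA codon 8 were higher and 10 lower in females, and among the 142 other sites 28 were higher and 30 lower. Of 2327 queuosine-tRNA sites over all mRNAs 607 were higher in knockout females and 443 lower. Aspartate sites over all mRNAs were more often lower, with 93 higher and 172 lower of 648 at GAC and 109 higher and 186 lower of 689 at GAT. On the subunits 2 were higher and 3 lower of 8 at GAC, and 2 were higher and 4 lower of 10 at GAT. Over all mRNAs 59.8% of 132 TAC sites were higher in knockout females and 2.27% lower, and on the subunits neither of 2 TAC sites was apart. Sites of 1 mRNA share its footprints, so a rise at one lowers the share of the rest.

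Among the sites with a queuosine-tRNA codon whose female groups did not overlap, 4 are shown with their surroundings, chosen after their values were seen. Each line gives 48 bases of coding sequence from GENCODE M21, and capitals mark the queuosine-tRNA codon and the listed codon that follows it, whose number from the start codon is in the name.
Ndufa8 codon 91: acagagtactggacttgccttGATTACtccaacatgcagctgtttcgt
Ndufb9 codon 109: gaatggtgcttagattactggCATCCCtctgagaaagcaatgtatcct
Ndufa1 codon 52: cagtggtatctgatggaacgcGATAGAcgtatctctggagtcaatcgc
Atp5b codon 115: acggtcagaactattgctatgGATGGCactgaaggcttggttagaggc
The sites on Ndufa8 and Ndufb9 were higher in knockout females and those on Ndufa1 and Atp5b lower. Aspartate codons stand in both sets, before different neighbours.

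The Ndufa8 site held 39.8%, 30.6% and 24.0% of the mRNA's footprints in knockout females against 16.4%, 17.6% and 13.2% in wild-type females; knockout males had 32.8% and 47.0% against 27.2% and 32.4% in wild-type males. The Ndufb9 site held 11.1%, 7.81% and 4.88% in knockout females against 2.29%, 1.95% and 2.35% in wild-type females. In both mRNAs the knockouts lay above the wild type in either sex, with 2 males per genotype. For Ndufa8 the male groups were barely apart. Knockout male 1, at 32.8%, lay inside the counting interval of wild-type male 2 (Wilson 95% interval 29.2% to 35.8%).

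The Ndufa1 site held 3.72%, 4.96% and 3.86% in knockout females against 6.59%, 6.36% and 7.21% in wild-type females, and the Atp5b site 5.41%, 7.73% and 7.44% in knockout females against 16.8%, 15.6% and 15.0% in wild-type females.

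These shares rest on 592 to 2666 footprints per library for Ndufa8, 462 to 1988 for Ndufb9, 834 to 4659 for Ndufa1 and 291 to 1195 for Atp5b. The widest counting interval among the 4 sites was that of Atp5b in wild-type male 2, at 15.5% (Wilson 95% interval 11.8% to 20.1%). Intervals cover counting error only, since PCR copies of 1 fragment are not separate molecules.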

How the data were processed

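Per the labels' protocols, hippocampi were lysed in polysome buffer with cycloheximide, part of each lysate was digested with RNase I for footprints (NEB small RNA kit), and part was depleted of ribosomal RNA and sequenced as input (NEBNext Ultra II). The deposited count table holds whole-number counts per gene symbol, not normalized, for 18054 genes in 20 libraries. The deposited codon tables give signal as footprint coverage per codon, per the file headers. The submitters' processing notes list cutadapt 1.8.1, Trimmomatic 0.39, Bowtie 1.0.0 and 1.2.2 and SAMtools 0.1.19; the build, the counting program and the use of molecular identifiers are not named there or in the labels. The deposited tables of mean codon enrichment and its SD were not used. No column was left without a sample (0).

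Counts were tested with edgeR 4.0.16 in R 4.3.3 (limma 3.58.1 for its functions) after TMM normalization and filterByExpr, with quasi-likelihood F tests on the means of the 4 groups of sex and genotype, footprints and input apart. Translational efficiency was the assay-by-genotype interaction in 1 model of 20 libraries. Benjamini-Hochberg adjusted p values cover all genes tested, and a call is an adjusted p under 0.05. CPM used TMM library sizes, and log2 CPM a prior count of 2. Fold changes are log2, knockout over wild type or wild-type females over wild-type males, with the SE of the fit. DESeq2 1.42.0, DESeq2 size factors, no filter on low counts, a replicate block, each animal left out, animals left out by tissue markers, marker covariates and an offset for coding GC and length were alternatives; the last was added after seeing the data. The fits were tested on simulated data. Coding length, GC and sequences came from GENCODE M21 (GRCm38).

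Between replicate libraries of a group, chi-square per degree of freedom was 3.45 to 14.3, more than counting error, so each library counted as 1 sample. The labels tie each library to an animal, and footprints and input of 1 animal share a lysate, which is the pairing used for the animal block. Same-numbered animals of the 2 genotypes were not paired, since their deviations from group means correlated at −0.207 to −0.121 in female footprints, −0.21 to −0.114 in female input, −0.0778 in male footprints and 0.0944 in male input.

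The members, the 4 pathway lists and the marker lists were chosen with earlier results of these data known. Named were members called in any comparison, the lowest p per complex and comparison, the highest and lowest wild-type level per complex, paralogues and core subunits. Codon sites shown were chosen after their values were seen. Some values of members covered by the naming rule are not reported here. Other marker lists had 3 of 8 meningeal fibroblast and 1 of 10 hippocampal excitatory neuron genes higher in knockout female footprints. Higher there too were 2 of 7 astrocyte and 1 of 5 erythrocyte genes. Parvalbumin interneuron (0 of 6), oligodendrocyte (0 of 7) and microglia (0 of 7) genes were not called, where 7.06% of all tested genes were. All 10 excitatory neuron markers lay above 0 in female footprints (median 0.54) and in female input (median 0.66), with 0 of 10 called in input.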

Additional observations from a re-analysis of the deposited data

How the results depend on the processing

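Without the 2 wild-type females of lowest choroid plexus level, subunits called were 0 in female footprints, 0 in female input, 0 in female translational efficiency, and 5 (median −0.38) in footprints and 16 in input between wild-type females and males, and the interaction median in footprints was −0.024. Without the 3 females of highest striatum level they were 0 (median 0.091), 0 and 0 in females, and 6 and 29 (median −0.43) between the sexes, with an interaction median of 0.098. With marker covariates they were 0 in female footprints and 0 in female input (median 0.25). With the coding GC and length offset they were 0 in female input (median 0.073), 0 in female translational efficiency, 7 (median −0.062) in footprints and 6 (median −0.10) in input between the sexes. Under that offset 3 subunits called lower in wild-type female footprints turned to 0.013 (Atp5e), 0.12 (Cox6a1) and 0.016 (Ndufa13), and none of the 3 was called. The cause of these shifts was not tested.

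DESeq2 called 5 subunits in footprints and 1 in input over both sexes, and 5 in females and 3 over both sexes in translational efficiency; without a filter on low counts edgeR called 5 in footprints over both sexes. With the replicate number as a block, female footprints gave 2 calls (1 higher, 1 lower) and female input 0; with the animal as the block, translational efficiency gave 7 in females and 4 over both sexes. In the block's check no same-numbered pair of females correlated above 0, so a call lost under the block is not read as a weaker effect.

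Leaving out each animal in turn gave 0 to 13 calls (median −0.024 to 0.062) in female footprints, 0 to 7 in female input, 0 to 2 in female translational efficiency and 0 to 16 in footprints over both sexes. Between the sexes it gave 21 to 31 calls (median −0.43 to −0.31) in footprints and 26 to 45 in input. Medians ran from −0.034 to 0.047 in male footprints, −0.043 to 0.049 in the footprint interaction, −0.018 to 0.15 in male translational efficiency and −0.20 to −0.057 in its interaction. Fits that leave 1 animal in a group assume it varies like the other groups. The share of all genes called is not given for the fits with animals left out.

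For codons, counting the listed codon moved the queuosine share on subunit mRNAs to 0.37 in females and 0.15 in males (log2), the tyrosine share in females to 0.35 (−0.12 with equal weight per mRNA), and the queuosine sites without overlap in males to 4, which were 17 to 22 with 1 male left out, as fewer libraries overlap less often. Without division by length the ratio of Atp5b to Atp5c1 was 4.06 in footprints and 3.85 in input, that of Sdha to Sdhb 5.54 and 4.31, and in input that of Atp5b to Atp5a1 2.09 and that of Sdhc to Sdhd 1.11. Per kilobase of transcript, chosen after seeing the data, the input ratios were 2.34 for Atp5b to Atp5c1, 2.69 for Atp5b to Atp5a1, 0.433 for Sdhc to Sdhd and 23.35 for Atp5g3 to Atp5g1. Of the alternatives for counts and medians, 49 moved past their limits and 180 stayed within them. With 1 animal left out 37 moved and 323 stayed. For values of single genes, 261 became weaker, 16 stronger and 3 reversed, and 714 stayed the same. With 1 animal left out 237 of these became weaker, 10 stronger and 4 moved, and 1229 stayed the same. Depth limits Cox7b2, Ndufa4l2, Atp5g2 and Atp5l, which were too low to test in footprints.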
